A study of Mus musculus with 6 samples.

Results

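Cytosolic ribosomal protein genes were examined in LSK cells, the lineage-negative, Sca-1 and c-Kit positive bone marrow fraction that holds the hematopoietic stem cells and early progenitors. Members were taken from the deposited table of loci by symbol: Rpl or Rps followed by a number and at most a short suffix, together with Rplp0, Rplp1, Rplp2 and Rpsa, leaving out pseudogene names and keeping the longest locus where a symbol was listed more than once. This gave 84 members out of 53445 loci, chosen from 122 loci with a matching symbol. The members comprised 46 proteins of the large (60S) subunit, 31 of the small (40S) subunit and 7 paralogs.

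Poly(A) RNA-Seq was available for 3 OgaVav-Cre mice (the mutants below) and 3 wildtype mice, all female, about 12 weeks old and on a C57BL/6 background, with at least 20000 sorted cells and 1 library per mouse. OgaVav-Cre mice carry floxed Oga alleles and the Vav-iCre transgene, which is active throughout the hematopoietic lineage and so removes Oga, the enzyme that takes O-GlcNAc off proteins, from all blood cells and not from LSK cells alone. The labels give no further alleles for the wildtype mice and do not say whether they carried the Cre transgene. The comparison asked how transcript levels differed between LSK cells with and without Oga.

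A ribosome consists of a small subunit that reads the mRNA and a large subunit that forms the peptide bond, and each holds its own set of ribosomal proteins around a core of ribosomal RNA. Their mRNAs are among the most abundant in growing cells. Most begin with a terminal oligopyrimidine (TOP) tract, a C at the start followed by further pyrimidines, through which mTOR signaling controls their translation. Blood formation is sensitive to the supply of these proteins, and inherited loss of 1 copy of several of them causes Diamond-Blackfan anemia. Mammalian genomes also hold many intronless copies of these genes, made by reverse transcription of their mRNAs, so that short reads of a ribosomal protein mRNA can align in several places.

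The following sequences show where reads of these mRNAs can be placed. The first is from the Rps6 coding sequence, as it stands in the intronless locus Gm13654 at chr2:75029717-75029766 on the minus strand (mm9), with the end of exon 2 in capitals and the start of exon 3 in lower case. A 50-base read over this junction matches the genome in that copy and not in the Rps6 gene, where an intron lies between the exons.
Rps6 junction in Gm13654: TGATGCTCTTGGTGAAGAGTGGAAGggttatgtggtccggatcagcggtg

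The next 3 sets compare the coding sequence of Rpl29 with that of its intronless copy Gm8210 on the plus strand of chromosome 1 (mm9), which differed at 3 of 483 coding bases. They are shown because the reads at these loci ran in opposite directions from mouse to mouse, as described below. The differing base is in capitals, and positions count from the first coding base. C72A lies in chr1:43246057-43246087, C300T in chr1:43246285-43246315 and T423C in chr1:43246408-43246438, with the Rpl29 base first and the Gm8210 base last.
Rpl29, C72A: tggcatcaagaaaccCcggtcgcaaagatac
Gm8210, C72A: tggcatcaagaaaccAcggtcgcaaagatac
Rpl29, C300T: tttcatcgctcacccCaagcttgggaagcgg
Gm8210, C300T: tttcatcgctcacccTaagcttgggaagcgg
Rpl29, T423C: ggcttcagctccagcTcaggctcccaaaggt
Gm8210, T423C: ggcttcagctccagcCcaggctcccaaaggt

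The last set shows the transcription start of 4 members with a TOP tract, from RefSeq (GRCm38.p6), as 15 bases before the start and 15 from it, with the pyrimidine run in capitals. They lie at chr4:86857353-86857382 on the minus strand (Rps6), chr7:141447636-141447665 on the plus strand (Rplp2), chr11:114668565-114668594 on the plus strand (Rpl38) and chr17:27635230-27635259 on the minus strand (Rps10).
Rps6: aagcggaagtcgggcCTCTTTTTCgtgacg
Rplp2: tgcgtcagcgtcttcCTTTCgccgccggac
Rpl38: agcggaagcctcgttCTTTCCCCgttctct
Rps10: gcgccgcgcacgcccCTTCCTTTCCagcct

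Library totals were 25190298, 26078093 and 27064389 reads in the mutants against 20600489, 19318056 and 21684561 in wildtype, and levels are given as CPM, reads scaled to a common library size with TMM, a normalization that centers most loci. Mgea5, the former symbol under which the table lists Oga (chr19:45824749-45858269, minus strand, mm9), stood at 4.61, 4.31 and 4.01 CPM in the mutants against 148, 154 and 116 CPM in wildtype, so each library matched its label. All 9 LSK markers were above 1 CPM in every library, and so were 9 of 11 markers of lineage-positive cells and all 9 of plasma cells. The summed level of the LSK markers ranged from 1073 to 2303 CPM in the mutants against from 1422 to 2518 CPM in wildtype, that of the lineage markers from 136 to 637 CPM and from 145 to 397 CPM, and that of the plasma cell markers from 1803 to 12498 CPM and from 1856 to 8217 CPM. The part of these other cells in the results below was not tested. With all 152 immunoglobulin loci left out, the median log2 fold change of the members was 0.32, as it was with them.

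Ribosomal protein loci were higher on average in OgaVav-Cre LSK cells, by a small amount that no single locus carried past the adjusted threshold. Of 84 members, 82 passed the filter on low counts, and 72 of these had a positive log2 fold change (OgaVav-Cre over wildtype), against 50.5% of all 22032 loci tested. The median over the members was 0.32 and over all loci tested 0.00. At an unadjusted p below 0.05 (edgeR's quasi-likelihood test), 29 members were higher, which is 35.4% of those tested, where 4.38% of all loci were, and 0 were lower, where 6.27% of all loci were. No member passed an adjusted p of 0.05 in edgeR, where 0.0318% of all loci did, or in limma-voom, while DESeq2's Wald test called 1 member, Rps29, and 0.822% of its loci. At an unadjusted p below 0.05, limma-voom had 36 members higher (4.4% of its loci) and DESeq2 33 (3.09%). The count of 29 rested in part on single libraries, being 15 without OgaVav-Cre replicate 2 and 15 without wildtype replicate 3. On the deposited RPKM it was 18. The share of all loci was not computed for the fits without 1 library or on RPKM. With a correction for locus length and level, chosen after the data were seen, it was 7 (3.76% of all loci) and the median dropped to 0.12. Among other loci at or above the members' lower quartile in level, 40.9% of those up to 500 bases were higher at that p. At 1501 to 2000 bases, which spans the members' median length of 1526, 12.4% of them were. Of the members in these 2 bins, 3 of 5 and 6 of 15 were higher. In bulk RNA, fewer cells of a type and less RNA per cell cannot be told apart.

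**Figure D1:**
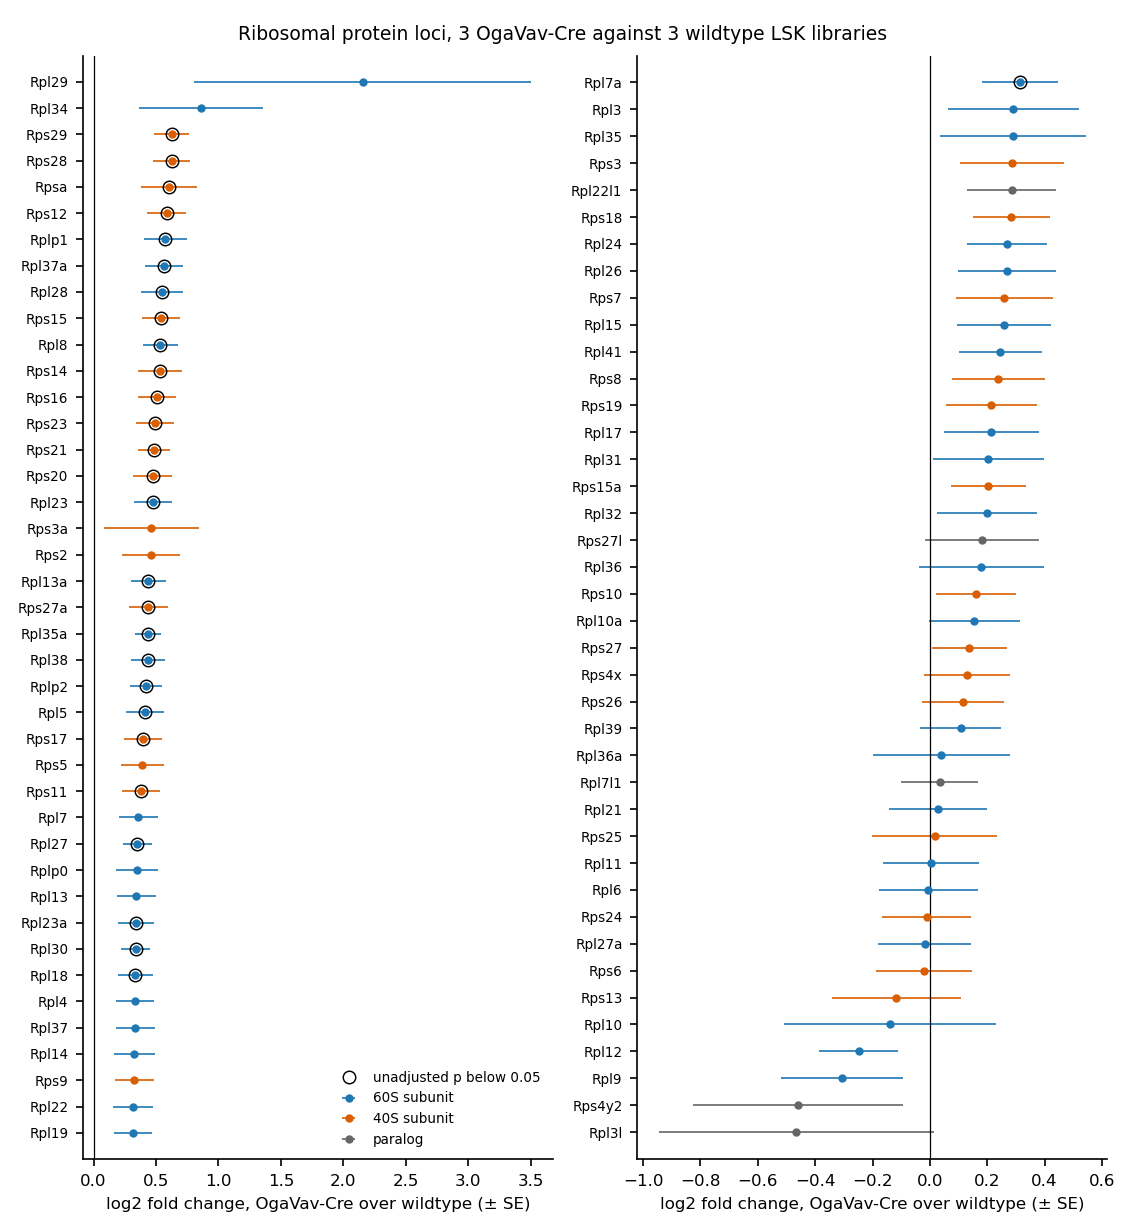
Log2 fold change (OgaVav-Cre over wildtype, x axis) of 81 of the 82 members tested, ordered by size, with bars of 1 standard error. Colors mark the subunit and rings an unadjusted p below 0.05. The 2 panels have different x axes. All ringed loci are at positive values, and Rpl29 and Rpl34 at the top have the widest bars.

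The levels of the genotypes did not overlap in 34 members. In 33 of them, 40.2% of those tested, all mutant libraries lay above all wildtype ones (7.5% of all loci), and in 1, Rpl12, all lay below (9.97% of all loci). The large subunit had 20 and the small subunit 13 of the 33. At an unadjusted p below 0.05, 16 of 46 large subunit members and 13 of 31 small subunit members were higher, with median log2 fold changes of 0.32 and 0.38.

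Each library was then described by how far its members lay from their own mean over the 6 libraries. The median deviation was 0.13, 0.34 and -0.03 in the mutants (replicates 1 to 3) against -0.13, -0.03 and -0.29 in wildtype. OgaVav-Cre replicate 3 and wildtype replicate 2 thus sat side by side, and the libraries farthest apart were OgaVav-Cre replicate 2, with 73 of 82 members above their mean, and wildtype replicate 3, with 6. Reads on the members made up 2.00, 2.47 and 1.97% of all counts in OgaVav-Cre and 1.86, 1.91 and 1.72% in wildtype, with 95% Wilson intervals at most 0.012 percentage points wide that cover counting error only. The genotypes did not overlap, and the difference was 0.316 percentage points (p = 0.1, two-sided exact permutation test, n = 3 per genotype), which is the smallest p that 3 against 3 allows. Without OgaVav-Cre replicate 2 the difference was 0.153 percentage points.

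**Figure D2:**
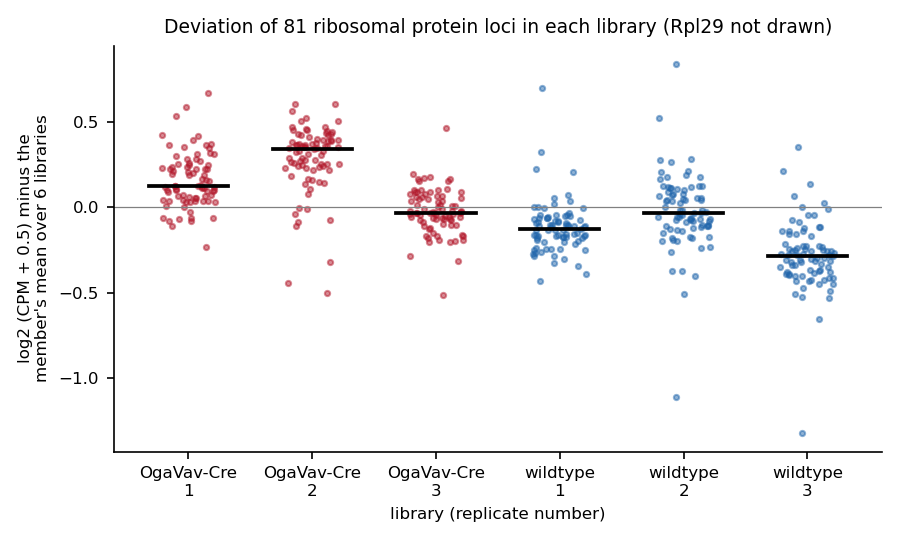
Deviation of 81 members from their own mean over 6 libraries (y axis, log2 of CPM plus 0.5) in each library (x axis), with a line at the median. The median of OgaVav-Cre replicate 2 is highest at 0.34 and that of wildtype replicate 3 lowest at -0.29. Rpl29, which ranges far beyond the axis, is not drawn.

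The members with the smallest p were all higher in OgaVav-Cre, among them Rps29, Rpl35a, Rps28 and Rps21. Rps29, a zinc-binding protein of the 40S head (chr12:70258709-70260173, minus strand, mm9), stood at 278, 317 and 239 CPM in the mutants against 185, 169 and 188 CPM in wildtype. The genotypes did not overlap, and the log2 fold change was 0.62 ± 0.14 (SE, edgeR adjusted p = 0.382). Its adjusted p ran from 0.0285 in DESeq2 to 0.862 in edgeR without wildtype replicate 3.

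Rps28, another small 40S protein (chr17:33959981-33961443, minus strand), stood at 120, 136 and 97.9 CPM in the mutants against 72, 72.8 and 84.7 CPM in wildtype. Rps21, also of the 40S subunit (chr2:179992082-179993150, plus strand), stood at 93.8, 102 and 90.1 CPM in the mutants against 66, 77 and 61.5 CPM in wildtype. Neither gene overlapped between genotypes, and their log2 fold changes were 0.62 ± 0.15 and 0.48 ± 0.13 (SE). Rpl35a, a protein of the 60S subunit (chr16:33056539-33060275, plus strand) stood at 83.7, 80.7 and 77.2 CPM in the mutants against 58.2, 61.4 and 59.1 CPM in wildtype. The genotypes did not overlap, and its log2 fold change was 0.44 ± 0.10 (SE). The edgeR adjusted p of Rps28, Rps21 and Rpl35a lay between 0.384 and 0.396. Their loci held 84.0, 47.9 and 15.6% of the reads of their families, the loci that share their sequence, as described below.

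In the direction of wildtype, the 5 members with the smallest p were Rpl12, Rpl9, Rps4y2, Rpl3l and Rps13, at log2 fold changes of -0.25, -0.30, -0.46, -0.47 and -0.12. None was at an unadjusted p below 0.05. Rpl12 stood at 29.4, 28.8 and 27.7 CPM in the mutants against 29.8, 37.9 and 34.3 CPM in wildtype. The highest mutant library lay just under the lowest wildtype one.

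By structure, the stalk of the 60S subunit, which recruits the translation factors, consists of Rplp0 with Rplp1 and Rplp2 bound to it, and Rpl12 lies at its base. Rplp1 stood at 343, 352 and 251 CPM in the mutants against 213, 238 and 184 CPM in wildtype, and Rplp2 at 70.6, 73.6 and 57.1 CPM and 52.7, 49.2 and 48.5 CPM. Neither overlapped between genotypes. Their log2 fold changes were 0.58 ± 0.17 and 0.42 ± 0.13 (SE), beside 0.35 ± 0.17 for Rplp0 and -0.25 ± 0.14 for Rpl12. The loci of Rplp1, Rplp2, Rplp0 and Rpl12 held 40.8, 13.1, 41.4 and 2.72% of the reads of their families, as described below.

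Rpl5 and Rpl11 form the 5S particle with 5S RNA, which also binds Mdm2 when ribosome assembly is disturbed. Rpl5 stood at 262, 305 and 250 CPM in the mutants against 209, 230 and 176 CPM in wildtype, with no overlap and a log2 fold change of 0.41 ± 0.15 (SE). Rpl11 stood at 11.1, 9.97 and 9.78 CPM and 10.5, 10.5 and 9.73 CPM, with a log2 fold change of 0.00 ± 0.17 (SE). The low level of Rpl11 belongs to the gene locus alone, since most reads of its family lay at intronless copies, as described below.

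Of 18 members of the Diamond-Blackfan anemia genes, 17 (94.4%) were higher on average, where 50.5% of all loci were, and 7 (38.9%) at an unadjusted p below 0.05, where 4.38% of all loci were. The median log2 fold change was 0.26. Rps19, the gene most often affected in that anemia, stood at 40.4, 54.3 and 42.3 CPM in the mutants against 35.5, 44.2 and 38.2 CPM in wildtype, which overlapped (log2 fold change 0.21 ± 0.16, SE). That locus held 6.72% of the reads of its family, the loci that share its sequence, as described below. Summed over them, Rps19 stood at 669, 889 and 626 CPM and 541, 565 and 487 CPM, without overlap (log2 fold change 0.46 ± 0.17, SE). Rps14, the 40S gene lost in the 5q- syndrome, stood at 462, 491 and 351 CPM and 303, 344 and 255 CPM. These did not overlap, and the log2 fold change was 0.53 ± 0.18 (SE). All 8 members that line the exit of the peptide tunnel were higher on average (50.5% of all loci), 1 of them (12.5%) at an unadjusted p below 0.05 (4.38% of all loci), with a median of 0.28.

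Several members have a paralog that replaces or resembles them. Rpl22l1, the paralog of Rpl22, stood at 101, 122 and 106 CPM in the mutants against 93.3, 104 and 73.4 CPM in wildtype, while Rpl22 stood at 370, 414 and 299 CPM and 289, 322 and 258 CPM. Both pairs of groups overlapped, and the log2 fold changes were 0.29 ± 0.16 and 0.32 ± 0.16 (SE). Rpl7l1 and Rps27l had log2 fold changes of 0.03 and 0.18, beside 0.36 for Rpl7 and 0.14 for Rps27.

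The other paralogs were scarce. Rpl3l, a muscle form of Rpl3, was between 0.475 and 1.25 CPM in every library, where Rpl3 was between 513 and 1005 CPM. Rpl10l and Rpl39l, known from the testis, were not tested: Rpl10l had 0 reads in every library, which allows up to 0.156 CPM at the shallowest of them, and Rpl39l had at most 7 reads. Rps4y2 was between 3.17 and 8.87 CPM. None of the 5 paralogs tested was at an unadjusted p below 0.05, and neither was any of the 7 members they derive from.

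Levels between members were compared per length, as RPKM, which divides the reads by locus length and library size. Rpl28 was highest at 1644 ± 266 RPKM in OgaVav-Cre and 1183 ± 131 RPKM in wildtype (SD, n = 3). Rps26 followed at 812 ± 111 and 786 ± 23.4 RPKM and Rps15 at 815 ± 139 and 586 ± 19.4 RPKM, so that these neighbors did not differ beyond their spread in OgaVav-Cre. The median over all members was 67.6 RPKM. The lowest after Rpl10l were Rpl39l at 0.114 and Rpl3l at 0.402 RPKM, averaged over the 6 libraries.

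The locus length of the members ranged from 390 bases (Rps29) to 6270 (Rps15a), with a median of 1526 against 3129 over all loci tested, and short loci in general were higher in OgaVav-Cre. Over all loci tested, the median log2 fold change was 0.22 in the tenth with the shortest loci (77 to 747 bases) and -0.05 in the tenth with the longest. The members, other loci with a member's symbol, and loci made up to at least 50% of a member's 50-base runs were then left out. Loci holding less member sequence stayed in. Among the rest at or above the members' lower quartile in level (5.15 log2 CPM), the shift was larger. There the median was 0.39 at up to 500 bases, 0.29 at 501 to 750, 0.28 at 751 to 1000 and 0.22 both at 1001 to 1500 and at 1501 to 2000 bases. Of the loci in these 5 bins, 40.9, 25.6, 22.4, 14.0 and 12.4% were higher at an unadjusted p below 0.05, against 4.38% of all loci.

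The members' medians in the same 5 bins were 0.55, 0.40, 0.34, 0.31 and 0.33, from 5, 8, 14, 13 and 15 members, of which 3, 6, 4, 4 and 6 were higher at an unadjusted p below 0.05. At 2001 to 3000 bases 11 members had a median of 0.04, where the other loci had 0.16, and at 3001 to 5000 bases 13 members had 0.29, where the others had 0.07. Among members, log2 fold change and length had a Spearman correlation of -0.333 across 82 loci, which are no independent replicates and share all libraries. The 3 shortest, Rps29 at 390, Rpl36 at 407 and Rps26 at 448 bases, had log2 fold changes of 0.62, 0.18 and 0.11. The 3 longest, Rps15a at 6270, Rpl11 at 5851 and Rps24 at 5197 bases, had 0.20, 0.00 and -0.01.

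The correction for length and level together was fitted without the members and the loci left out above. With it, the 7 members higher at an unadjusted p below 0.05 included Rpl35a, Rps12, Rpsa, Rps20, Rps28 and Rps14. Rps26 was the 1 member that was lower, where 4.98% of all loci were. A correction for length alone left the median at 0.29 and the count at 30, for which the share of all loci was not computed.

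**Figure D3:**
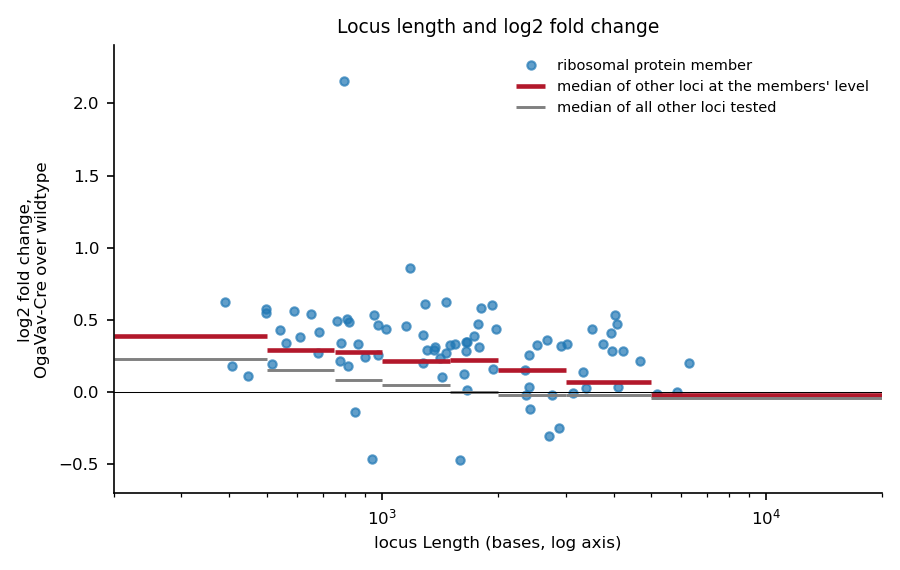
Log2 fold change (y axis) of each member against the Length of its locus in bases (x axis, log scale, drawn to 20000). Gray lines give the median of all other loci tested, by length bin. Red lines give that of other loci at or above the members' lower quartile in level. Red lines fall from 0.39 in the shortest bin to -0.02 in the longest.

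Reads of these mRNAs can match the genome outside the measured loci. How such reads were counted is not given in the sources used here. Every run of 50 bases, the read length of the study, was taken from 1 spliced transcript of each of 83 members and searched in the mm9 genome. Over these members, the median share of these windows was 37.1% in the gene only, 35.1% in the gene and elsewhere, 19.9% elsewhere only and 3.57% nowhere. Each is a separate median, so together they describe no single member. A match outside the gene was found for 80 of the 83. For 76 mitochondrial ribosomal protein genes, the median was 81.2% in the gene only and 0% elsewhere.

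Of the table's loci, 332 beyond the members consisted to at least 50% of such windows, 328 of them with a single exon. Of the members, 70 had at least 1 such locus, and 49 held less than 50% of the reads summed over their family, 21 of them less than 10%. Rps3a, a 40S protein that contacts initiation factors, stood at 63, 47 and 39 reads in the mutants against 31, 34 and 28 in wildtype at its gene. Its copy Gm9000 on chromosome 13 had 40449, 55051 and 45676 reads in the mutants against 32530, 34919 and 29800 in wildtype. Rps6, the 40S protein phosphorylated by S6 kinase, stood at 565, 898 and 769 reads and 664, 617 and 635 reads at its gene, and at 17322, 25003 and 19068 and 15031, 17079 and 14662 reads in the copy Gm13654 whose junction is printed above. The Rps6 gene locus held 1.92% of the reads of its family. These genes were named after their values were seen.

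For Rpl28 and Rps27, the longest locus of that symbol was itself an intronless one, at chr1:129935104-129935600 (plus strand, mm9) and chr11:69385813-69389146 (minus strand). Rpl28 thus had 22776, 27754 and 21401 reads in the mutants against 15685, 11766 and 14963 in wildtype at the chromosome 1 locus, while the gene on chromosome 7 had between 123 and 195 reads in every library. The high RPKM of Rpl28 belongs to the intronless locus.

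The member with the largest log2 fold change, Rpl29, had opposite patterns at its gene and at a copy. The Rpl29 gene (chr9:106331785-106333899, plus strand) had 356, 930 and 400 reads in the mutants against 8, 286 and 1 in wildtype, with a log2 fold change of 2.15 ± 1.35 (SE, edgeR adjusted p = 0.581). Scaled to library size, wildtype replicate 2 at 14.8 CPM overlapped OgaVav-Cre replicate 3 at 14.6 CPM, while the other wildtype libraries were close to 0. Gm8210 (chr1:43245970-43246618), whose 3 coding differences are printed above, ran the other way, with 898, 8 and 984 reads in the mutants against 1648, 810 and 1754 in wildtype. The library with most reads at the gene had fewest at the copy, and the libraries with fewest at the gene had most at the copy.

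A further Rpl29 locus on chromosome 5 followed the gene, with 301, 721 and 385 reads in the mutants against 5, 229 and 9 in wildtype. Summed over the 17 loci of the family, Rpl29 stood at 137, 140 and 128 CPM in the mutants against 140, 130 and 132 CPM in wildtype. The 6 libraries were thus nearly level, and the log2 fold change was 0.01 ± 0.11 (SE). Rpl29 and Rpl34 were named after their values were seen. At the Rpl34 gene locus wildtype replicate 1 stood with the OgaVav-Cre libraries: 124, 118 and 107 CPM in the mutants against 126, 35.6 and 30.7 CPM in wildtype. Without wildtype replicate 1 its log2 fold change was 1.81 and its edgeR adjusted p 0.0489, and with all libraries 0.86 and 0.556. Over the alternatives its adjusted p reached 0.881, without wildtype replicate 3. Summed over its 5 loci, Rpl34 had a log2 fold change of 0.47 ± 0.19 (SE).

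**Figure D4:**
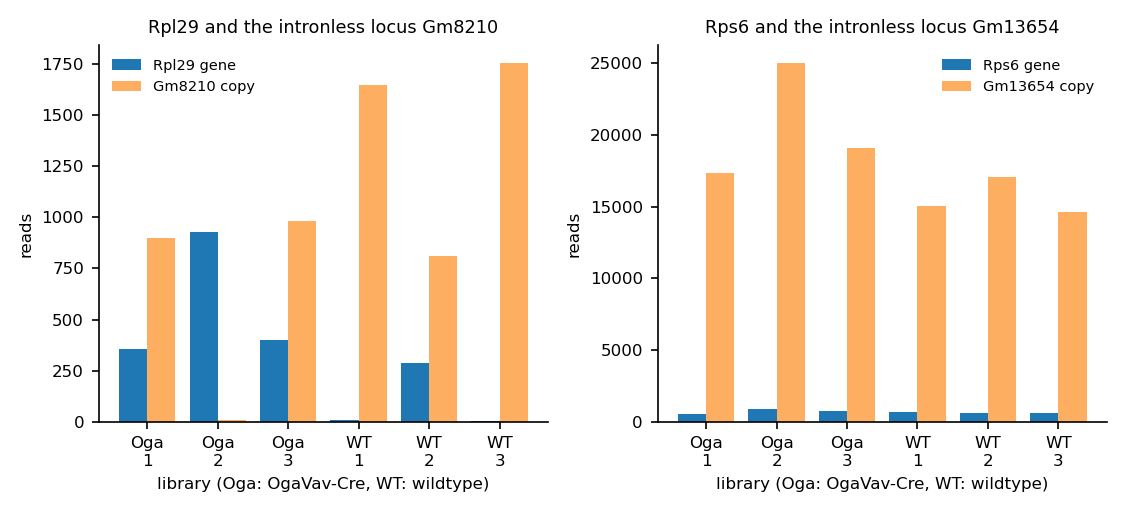
Reads (y axis) per library (x axis) at the gene and at 1 intronless copy of Rpl29 (left) and Rps6 (right). At Rpl29, OgaVav-Cre replicate 2 has 930 reads at the gene and 8 at Gm8210, and wildtype replicate 3 has 1 and 1754. At Rps6 the copy exceeds the gene in every library.

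With reads summed over each family, 80 of 82 members were higher on average (50.6% of all loci) and 32 were so at an unadjusted p below 0.05 (4.25% of all loci), with a median log2 fold change of 0.34. None passed an adjusted p of 0.05 in edgeR, and 0 were lower at an unadjusted p below 0.05. The spread among members was narrower, with a standard deviation of 0.18 in place of 0.32. Rpl12, Rpl9, Rps13, Rpl10 and Rps24, which were negative at the member locus, were positive in the sum at 0.29, 0.27, 0.28, 0.21 and 0.04, and Rpl11 was at 0.49. The remaining negative values were those of Rpl3l and Rps4y2, which had no other locus to add. Reads on all families made up 5.10, 6.40 and 5.12% of counts in OgaVav-Cre and 4.79, 4.99 and 4.41% in wildtype, without overlap (difference 0.803 percentage points, p = 0.1, two-sided exact permutation test, n = 3 per genotype). Without OgaVav-Cre replicate 2 the difference was 0.374 percentage points. The sums were chosen after the data were seen and were not corrected for length. Of the added loci, 235 were tested singly, with a median length of 524 bases and a median log2 fold change of 0.34. Other loci at the members' level had medians of 0.39 at up to 500 bases and 0.29 at 501 to 750. The part of length in the sums was not tested. A read counted at more than 1 locus of a family would enter these sums and shares more than once. Whether that happened is not known.

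**Figure D5:**
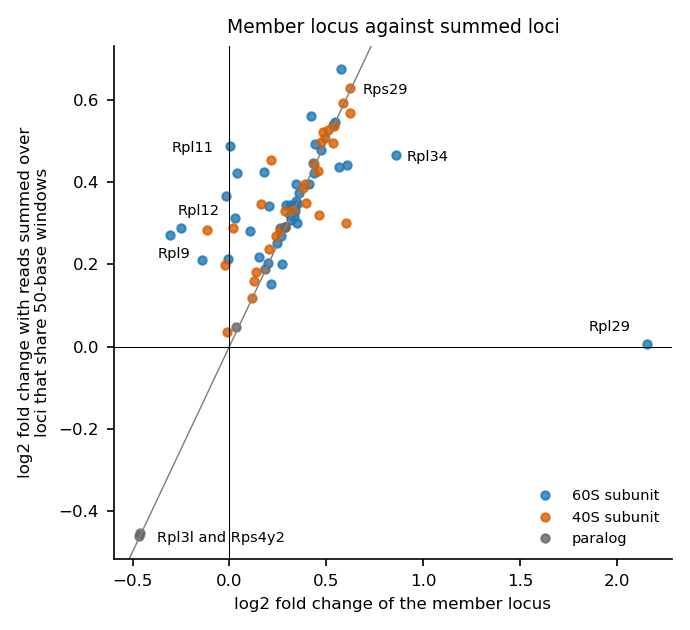
Log2 fold change of each member at its own locus (x axis) and with reads summed over the loci that share 50-base windows with it (y axis), with the line of equal values. Rpl29 falls from 2.15 to 0.01, and Rpl12 and Rpl9 move from below 0 to 0.29 and 0.27.

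A TOP start, a C at the RefSeq start followed by at least 4 pyrimidines, was found in 13 of the 62 members with a promoter entry (21%) and in 3.01% of 27025 genes. RefSeq gives 1 annotated start per entry, so a start a few bases off hides the tract. The 13 had a median log2 fold change of 0.29 and the 47 tested members without it 0.29. The letters CGGAAG, on either strand, occurred in the 300-base entries of 66.1% of the members and 18.8% of all genes, and in 56.5% of 69 mitochondrial ribosomal protein genes.

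Other genes of the translation machinery whose mRNAs are known TOP mRNAs were set beside the members. Of 22, 20 (90.9%) were higher on average, where 50.5% of all loci were. At an unadjusted p below 0.05, 4 (18.2%) were higher, where 4.38% of all loci were, and 1 was lower, where 6.27% were. The median log2 fold change was 0.22. The 4 with the smallest p were Eef1d, a subunit of the elongation factor 1 complex, at 0.41, Eif2s3x, a subunit of initiation factor 2, at 0.42, Fau, which encodes Rps30 fused to a ubiquitin-like protein, at 0.78, and Eif4a2, an RNA helicase, at -0.42. Rps27a, which encodes a ribosomal protein fused to ubiquitin, and Fau did not overlap between genotypes, at 0.44 and 0.78. In 7.5% of all loci the mutants lay above wildtype without overlap. Fau was low, at 4.43, 4.00 and 3.47 CPM in the mutants against 3.05, 2.23 and 1.65 CPM in wildtype. Its SE was 0.31 and its edgeR adjusted p 0.45. Reads at copies were summed for the members only. The 76 mitochondrial ribosomal protein genes, whose products work in a separate ribosome, had a median of 0.12, and a median length of 2217 bases. Of these 76, 61 (80.3%) were higher on average, where 50.5% of all loci were. At an unadjusted p below 0.05, 6 (7.89%) were higher, where 4.38% of all loci were, and 2 lower, where 6.27% were.

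Rplp0, Rpl38 and Eef2 served the study as the reference for qRT-PCR on the same cDNA. Rplp0 stood at 941, 1084 and 785 CPM in the mutants against 767, 802 and 639 CPM in wildtype, where OgaVav-Cre replicate 3 fell between the wildtype libraries. Rpl38 stood at 149, 160 and 119 CPM and 106, 107 and 104 CPM, and Eef2, the factor that moves the ribosome along the mRNA, at 2719, 2626 and 2281 CPM and 2266, 2267 and 2229 CPM, both without overlap. Their mean log2 CPM was 9.50, 9.59 and 9.22 in OgaVav-Cre and 9.15, 9.18 and 9.05 in wildtype. The genotypes did not overlap, and the difference was 0.31 (p = 0.1, two-sided exact permutation test, n = 3 per genotype).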

How the data were processed

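Poly(A) RNA from sorted LSK cells of 6 mice was read as single-end 50 bp reads. The authors' alignment was to mm9, with the analysis per locus in Genomatix, and the submitters' processing notes name CASAVA 1.8.2. How reads with several matches were counted, whether strand was used and the annotation are not given in the sources used here. The authors deposited counts per locus, which are whole numbers, and RPKM, which are counts per length and a library divisor. Their columns of fold changes and p-values were not used. Groups were taken from the labels, and 1 library stands for 1 mouse.

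Counts were analyzed with edgeR 4.0.16 (TMM, filterByExpr, quasi-likelihood test at its defaults) in R 4.3.3, with Benjamini-Hochberg adjustment over all 22032 loci tested and no covariates. The biological coefficient of variation was 0.307. A floor of 3 reads equals 0.109 to 0.156 CPM. Alternatives were RLE, other filters, DESeq2 1.42.0, limma-voom, limma on log2 RPKM with pseudocounts of 0.1 and 1, a length correction, thinning, a robust dispersion, a replicate block, no immunoglobulin loci and each library left out. The fits were tested on simulated data.

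The named genes were Mgea5, the qRT-PCR reference genes, the members of the stalk, 5S particle and paralog lists with the genes they derive from, Rps19, Rps14, members past an adjusted p of 0.05, the 5 with the smallest p in each direction, the 3 highest and lowest in RPKM, the 3 shortest and longest, and those at 3 reads or fewer in a genotype. Some genes that this rule or a list names are not reported here. The members and lists were chosen with earlier results of these data known. GENCODE M1 transcripts and the mm9 genome gave the sequences, beside RefSeq starts (GRCm38.p6), and Rpl41 had no transcript there. Python 3.11.15 made tables and figures.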

Additional observations from a re-analysis of the deposited data

How the results depend on the processing

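The count of members higher at an unadjusted p below 0.05 was 46 with the replicate block and 18 with RPKM at either pseudocount, against 29. The share of all loci at that p was not computed for these settings or for the fits without 1 library. Their counts therefore cannot be set against it. The labels do not say whether same-numbered mice were paired. Same-numbered libraries had correlations of -0.0814, 0.26 and 0.316 in their deviations. Libraries with different numbers were not compared, so these values cannot decide it, and the block is not read as a paired analysis. DESeq2's Wald test called 1 member at an adjusted p below 0.05 (Rps29, log2 fold change 0.64). Rpl12 was lower at an unadjusted p below 0.05 with RPKM at a pseudocount of 0.1, making a count of 1. With the correction for length and level, added after the data were seen, 7 members were higher and 1 lower, and the median was 0.12. Leaving out 1 library at a time gave 0 to 1 members at an adjusted p below 0.05 (Rpl34 without wildtype replicate 1), 15 to 40 higher and 0 to 1 lower at an unadjusted p, 67 to 76 higher on average, a median of 0.21 to 0.39 and a difference in shares of 0.153 to 0.405 percentage points (0.374 to 1.02 with summed reads), with wildtype replicate 3 and OgaVav-Cre replicate 2 giving 15. The median stayed within 0.144, the spread of the library medians, under every alternative but the correction for length and level, and it was positive in all. The causes were not tested.

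Among 36 named genes, 13 turned direction at least once, in 34 of 720 comparisons. Rps24 was at 0.0011 with RLE, 0.0021 with DESeq2, 0.043 with the length correction and 0.036 with summed reads. Rpl11 was at -0.0027 with at least 10 reads in every library and -0.062 and -0.040 with RPKM, and Rpl7l1 at -0.041 and -0.039. Thinning gave 0.032 for Rpl10. The length correction gave -0.066 for Rpl36 and -0.099 for Rps26, and with level added -0.16 and -0.30, with -0.11 for Rpl39, -0.042 for Rpl7l1, -0.0053 for Rps27, -0.041 for Rps27l and -0.13 for Rps4x. Summed reads gave 0.21 for Rpl10, 0.29 for Rpl12, 0.27 for Rpl9 and 0.28 for Rps13. Leaving out 1 library at a time gave -0.086 to 0.11 for Rps24, -0.054 to 0.041 for Rpl11, -0.080 to 0.10 for Rpl7l1, -0.024 to 0.36 for Rpl36, -0.25 to 0.058 for Rps13, -0.0044 to 0.21 for Rpl39 and -0.0030 to 0.36 for Rps27l.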
